A study of Homo sapiens with 6 samples.

Results

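Fibronectin, 5 integrin subunits and 4 proteins of the cytoplasmic adhesion complex were followed in ribosome profiles of K562 cells: FN1, ITGA4, ITGA5, ITGAV, ITGB1, ITGB5, ILK, PARVB, TLN1 and VCL. They were taken by gene symbol, 10 of the 19330 transcripts in the table, and the set was drawn up with results of this contrast already known, FN1 being among its largest increases. Differences of these genes between the groups, and the threshold calls given with them, are therefore descriptions and support nothing on their own. The gene lists set around them below were also chosen with earlier results of these data known, and their calls are read the same way. Ribosome profiling digests lysate with RNase I and sequences the fragments that bound ribosomes protect, so a footprint count over a coding sequence (CDS) reflects how many ribosomes sat there.

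K562 is a human chronic myelogenous leukemia cell line that grows in suspension. All cells of both groups carried the lentiviral Cas9 vector pLentiCRISPRv2, were selected in puromycin for 48 h and were analysed at 10 days post infection. The sgN6AMT1 group (3 libraries) received a guide against N6AMT1, whose product is the methyltransferase of the release factor eRF1, and the sgCtrl group (3 libraries) received guides against the olfactory receptor genes the labels spell OR11A1 and OR2M49. The study gives separate lentiviral infections for its ribosome profiles, no clone is named, and which control guide each sgCtrl library carried is not stated.

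Fibronectin is a large secreted glycoprotein that cells assemble into fibrils and bind through integrins. Integrins are heterodimers of an alpha and a beta subunit: alpha5beta1 and the alphaV integrins read the RGD sequence of fibronectin, whereas alpha4beta1 binds another stretch of it. On the inner face of the membrane talin and kindlins bind the beta tail and switch the integrin on, vinculin ties talin to actin, and ILK forms a ternary complex with a PINCH protein (LIMS1 or LIMS2) and a parvin. K562 cells are a classic model for alpha5beta1-mediated attachment to fibronectin.

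The coding sequences of short binding motifs in the ligand and the subunits are printed. They do not show which alpha subunit pairs with which beta subunit. Each run is 30 bases of the deposited transcript's CDS read from GENCODE release 44 on GRCh38, 5′ to 3′, with the codons of the motif in capitals. The ligand has the RGD motif at codon 1615 of 2477.
FN1: gtcactggcCGTGGAGACagccccgcaagc
The alpha subunits carry the GFFKR motif, which holds the alpha tail to the beta tail at the membrane, at codon 1003 of 1032 in ITGA4, 1024 of 1049 in ITGA5 and 1019 of 1048 in ITGAV.
ITGA4: aaggctGGCTTCTTTAAAAGAcaatacaaa
ITGA5: aagcttGGATTCTTCAAACGCtccctccca
ITGAV: aggatgGGCTTTTTTAAACGGgtccggcca
Both beta subunits encode a membrane-near NPxY motif in the tail, a talin docking site. The listed ITGB1 CDS has 3 NPxY matches, starting at codons 582, 780 and 792 of 801, and that of ITGB5 has 1. The match printed starts at codon 780 in ITGB1 and at codon 771 of 799 in ITGB5. The printed ITGB1 motif lies in the tail of the listed transcript, which differs from that of the reference transcript.
ITGB1: acgcaagaaAATCCGATTTACaagagtcct
ITGB5: atggcttcaAATCCATTATACagaaagcct
The encoded motif is shared within each set while the bases are not. Of the 15 motif bases, 11 were the same between ITGA5 and ITGAV and 12 between ITGA4 and ITGAV, and ITGA5 and ITGAV shared 19 of all 30 bases. The ITGB1 and ITGB5 runs shared 17 of 30 bases and 9 of 12 motif bases.

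The 10 genes lie on 7 chromosomes. On GRCh38 the GENCODE transcripts are FN1 at chr2:215360865-215436068 (minus strand, 46 exons), ITGA4 at chr2:181457386-181538940 (plus, 28 exons) and ITGAV at chr2:186590056-186680901 (plus, 30 exons). ITGA5 is at chr12:54395261-54419266 (minus, 30 exons), ITGB1 at chr10:32900318-32958230 (minus, 17 exons) and ITGB5 at chr3:124761948-124887365 (minus, 15 exons). ILK is at chr11:6603744-6610835 (plus, 12 exons), PARVB at chr22:43999211-44168923 (plus, 14 exons), TLN1 at chr9:35696948-35732195 (minus, 57 exons) and VCL at chr10:73998116-74120169 (plus, 22 exons). For 7 of them the listed transcript is the reference (MANE) transcript. The listed ITGB1 transcript ends in another tail, its last 72 bases replacing 63 of the reference CDS. ILK has 93 additional bases and PARVB another start, 207 bases in place of 108. Annotated protein-coding genes overlap ILK (TAF10), ITGA4 (CERKL) and PARVB (SAMM50), and the strand handling of the counts is not stated.

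Library totals ran from 1821356 to 2969736 footprints. N6AMT1 itself, the target of the guide, went from 25, 24 and 34 footprints in the sgCtrl libraries to 10, 9 and 8 (edgeR log2 fold change -1.51, SE 0.31). It passed the filter on low counts through the sgCtrl libraries, where it is high, so this value is a description. Levels are given as CPM, the count scaled to an adjusted library size. All 12 erythroid markers of K562 were detected, with a summed level of 27448 to 28942 CPM in sgCtrl and 27801 to 28748 CPM in sgN6AMT1. This sum is mostly globin, and within it 2 markers were called higher (HBE1 and TAL1, log2 fold change 0.48 each) and 5 lower, LMO2 (-1.44), KLF1 (-0.37), TFRC (-0.33), GATA1 (-0.29) and HBZ (-0.27). Over all 9202 genes tested, 12.9% were called higher and 13.9% lower. The marker lists were chosen with earlier results of these data known, so these counts are descriptions. Other marker lists were low and some moved with the group too. The 10 megakaryocyte markers summed to 153 to 167 CPM in sgCtrl and 66.6 to 93.4 CPM in sgN6AMT1, with PF4, GP1BA, VWF and SELP among those at 0 in all libraries. The 10 monocyte and macrophage markers summed to 60.1 to 71.4 CPM in sgCtrl and 152 to 157 CPM in sgN6AMT1, carried by LYZ and CD68, with CD14, MARCO and MRC1 at 0. LYZ went from 54.4 ± 5.47 to 103 ± 5.60 CPM (log2 fold change 0.90) and CD68 from 8.48 ± 1.36 to 41.4 ± 4.14 CPM (2.25). Lymphocyte markers (9 of 10 in the table) summed to 35.7 to 42.8 and 29.4 to 35.3 CPM, with CD2 and MS4A1 at 0.

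FN1, the ligand, carried far more footprints in sgN6AMT1 than in sgCtrl. The sgCtrl libraries had 247, 340 and 260 counts, and the sgN6AMT1 libraries 2062, 2174 and 1705. Scaled to CPM these were 124, 117 and 128 against 904, 939 and 926. Every sgN6AMT1 library lay above every sgCtrl library, and the spread inside each group was small beside the gap. The mean went from 123 ± 5.54 CPM to 923 ± 17.9 CPM (SD, n = 3 each), 7.52-fold, or 2.91 on the log2 scale (SE 0.062). Here and below, fewer cells of a type and less RNA per cell cannot be told apart from footprints alone. Neither can more mRNA and more ribosomes per mRNA. The study also sequenced RNA and derived translation efficiency, which were not used here.

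FN1 took 0.0120% ± 0.00054 of all footprints in sgCtrl and 0.0936% ± 0.0019 in sgN6AMT1 (SD, n = 3 each). Its place by raw count moved from between 1628th and 1768th to between 143rd and 154th. Its log2 fold change was 16th from the highest of the 9202 genes tested and 4th of the 7804 with a mean of at least 10 CPM. The other 9 genes together moved little, from 0.152% ± 0.0043 to 0.166% ± 0.0061 of all footprints. Of the fibroblast markers, LUM and PDGFRA had 0 counts in all libraries, and COL3A1, DCN and PDGFRB had at most 1 in any. COL1A1 had 7.44 ± 1.73 CPM in sgCtrl and 8.77 ± 1.17 CPM in sgN6AMT1, and COL1A2 had 31.4 ± 1.53 CPM in sgCtrl and 25.9 ± 3.28 CPM in sgN6AMT1. The 12 fibroblast and epithelial markers summed to 447 to 466 CPM in sgCtrl and 626 to 657 CPM in sgN6AMT1, of which KRT19, an epithelial keratin, went from 237 ± 8.67 to 422 ± 8.01 CPM. EPCAM, another epithelial marker, had 177 ± 13.8 CPM in sgCtrl and 184 ± 10.6 CPM in sgN6AMT1. CDH1, KRT5 and KRT14 had at most 1 count in any library. The part of these marker changes, and of the erythroid, megakaryocyte, monocyte and macrophage marker changes above, in the FN1 difference was not tested.

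**Figure D1:**
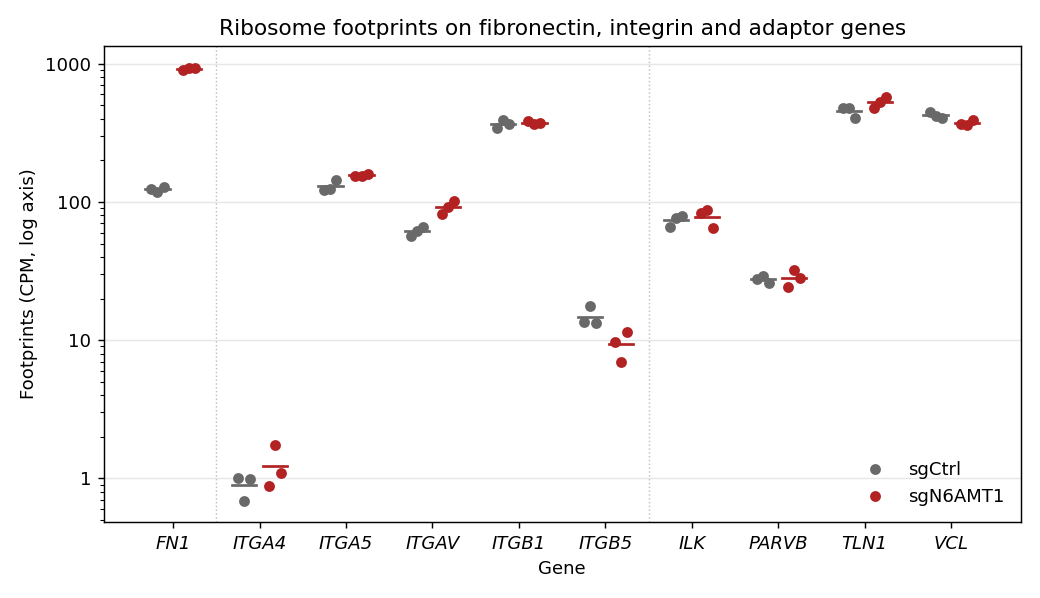
Footprints of the 10 genes in CPM on a log axis, in each of the 3 sgCtrl (grey) and 3 sgN6AMT1 (red) libraries; points are libraries and bars are group means, with the ligand on the left, the receptors in the middle and the adaptors on the right. FN1 alone moves by several-fold, from 123 to 923 CPM, while most other genes stay close to their sgCtrl level and ITGA4 sits near 1 CPM.

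Among the alpha subunits, ITGAV and ITGA5 were higher in sgN6AMT1 and ITGA4 was barely measured. ITGAV, the RGD-binding subunit that pairs with several beta subunits, had 112, 179 and 134 footprints in the controls against 186, 213 and 188, or 56.3, 61.7 and 66.1 CPM against 81.5, 92.0 and 102 CPM. The groups did not overlap. The mean went from 61.3 ± 4.91 to 91.9 ± 10.3 CPM (SD, n = 3 each; log2 fold change 0.57, SE 0.108).

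ITGA5, the alpha chain of the classical fibronectin receptor, had 245, 361 and 293 footprints in the controls against 351, 359 and 296. In CPM the libraries stood at 123, 124 and 144 against 154, 155 and 161, so the groups were close but did not overlap. The mean went from 131 ± 12.0 to 157 ± 3.64 CPM (log2 fold change 0.26, SE 0.080). Without sgCtrl replicate 2 the log2 fold change was 0.22 and did not pass the threshold.

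ITGA4, the alpha chain of the alpha4beta1 receptor of lymphoid and progenitor cells, had 2 footprints per control library against 2, 4 and 2 in sgN6AMT1. ITGA4 was the only gene of the 10 that did not pass the filter on low counts, and no fold is given for it.

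The beta subunits differed from each other. ITGB1, the common partner of alpha4, alpha5 and alphaV, had 343, 390 and 367 CPM in sgCtrl and 384, 369 and 373 CPM in sgN6AMT1. These ranges overlapped, with means of 366 ± 23.7 and 376 ± 7.76 CPM (log2 fold change 0.03, SE 0.058). ITGB5, which pairs with alphaV alone and binds vitronectin, had 27, 51 and 27 counts against 22, 16 and 21. It was lower in all 3 sgN6AMT1 libraries, at 9.64, 6.91 and 11.4 CPM against 13.6, 17.6 and 13.3 CPM (14.8 ± 2.40 to 9.32 ± 2.26 CPM; log2 fold change -0.72, SE 0.243). With so few counts, the ITGB5 difference rests on single libraries: without sgCtrl replicate 2 it was -0.55 and without sgN6AMT1 replicate 2 it was -0.53, and neither passed the threshold.

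In the adaptors, talin 1 was slightly higher and vinculin slightly lower. TLN1, the integrin activator, had 475, 475 and 408 CPM in sgCtrl and 479, 528 and 571 CPM in sgN6AMT1, a narrow separation between the lowest sgN6AMT1 library and the highest sgCtrl libraries. Its mean went from 453 ± 38.6 to 526 ± 46.0 CPM (log2 fold change 0.21, SE 0.058). Without sgCtrl replicate 3 this was 0.14 and without sgN6AMT1 replicate 3 it was 0.15, and neither passed the threshold.

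VCL, which links talin to actin, had 449, 420 and 405 CPM in sgCtrl and 364, 359 and 392 CPM in sgN6AMT1. All sgN6AMT1 libraries lay below all sgCtrl libraries, with means of 425 ± 22.3 and 372 ± 17.9 CPM (log2 fold change -0.19, SE 0.058). The difference was -0.16 without sgCtrl replicate 1, -0.17 without sgN6AMT1 replicate 2 and -0.14 with library totals in place of scaling factors, and in these 3 settings it did not pass the threshold.

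The ILK complex showed no separation. ILK, the pseudokinase scaffold, had 131, 223 and 160 footprints in the controls against 189, 203 and 119 (73.9 ± 7.04 and 78.4 ± 12.2 CPM; log2 fold change 0.09, SE 0.109). PARVB, its actin-binding parvin partner, had 55, 84 and 53 counts against 55, 74 and 52 (27.6 ± 1.42 and 28.1 ± 3.93 CPM; log2 fold change 0.02, SE 0.157). The libraries of both genes overlapped between the groups.

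Of the 9 genes tested by edgeR, 4 passed an adjusted p of 0.05 as higher (FN1, ITGAV, ITGA5 and TLN1), 2 as lower (VCL and ITGB5) and 3 did not pass. Over all 9202 genes 12.9% were called higher and 13.9% lower, or 1560 higher and 976 lower with library totals only in place of 1191 and 1282. The same 4 genes lay above sgCtrl without overlap and the same 2 below, as did 18.4% and 19.2% of all genes. DESeq2 called 2 of them higher (FN1 and ITGAV) and VCL lower, against 5.43% and 6.86% of all genes it tested. Since the genes were chosen on this contrast, nothing is read from these shares. The median log2 fold change of the 9 was 0.09, against 0.01 over all genes tested.

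**Figure D2:**
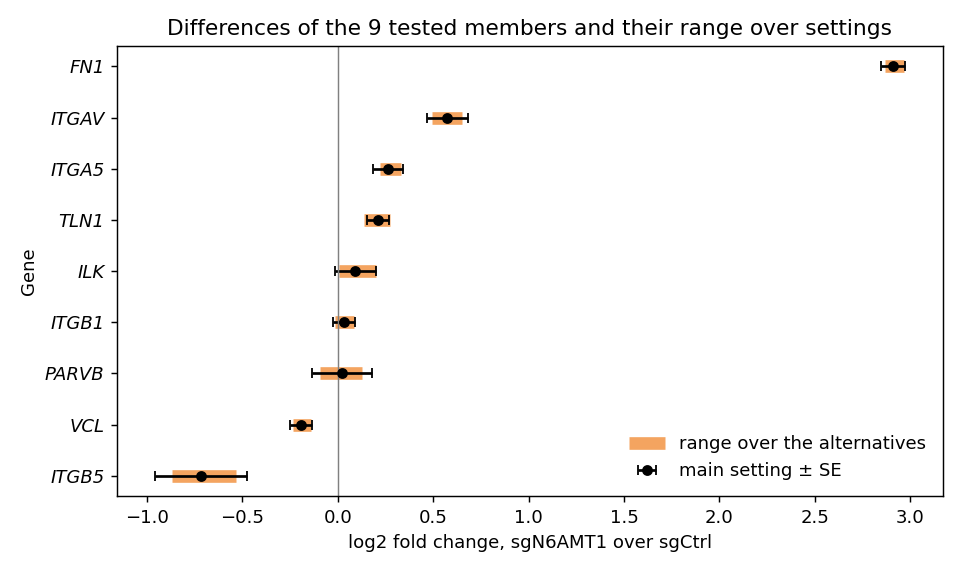
Log2 fold change of sgN6AMT1 over sgCtrl for the 9 tested genes (black points, bars are the SE) with the lowest and highest value over the other settings (orange). FN1 lies at 2.91 and far from the rest, ITGAV at 0.57 is next, and ITGB1 and PARVB straddle 0.

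Levels of different genes were compared as CPM per kilobase of CDS. In sgCtrl the order was ITGB1 (152 ± 9.85), VCL (125 ± 6.56), TLN1 (59.4 ± 5.07), ILK (51.0 ± 4.86), ITGA5 (41.5 ± 3.80), PARVB (23.2 ± 1.19), ITGAV (19.5 ± 1.56), FN1 (16.6 ± 0.745), ITGB5 (6.18 ± 1.00) and ITGA4 (0.289 ± 0.057). The ITGA4 level rests on 2 to 4 counts per library. Only the neighbours TLN1 and ILK, and ILK and ITGA5, overlapped between libraries. In sgN6AMT1, FN1 stood second at 124 ± 2.41, between ITGB1 at 156 ± 3.23 and VCL at 109 ± 5.25 CPM per kilobase, and overlapped with neither.

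The rest of the order was kept except that ITGAV (29.2 ± 3.27) stood above PARVB (23.6 ± 3.30), with overlapping libraries, as ILK and ITGA5 did in both groups. Among the 8607 genes with a tested value and a CDS length, FN1 moved from percentile 39.9 to percentile 83.6 of density. ITGAV moved from percentile 44.2 to 54.7 and ITGB5 from 15.9 to 7.47, whereas ITGB1 stood at 86.3 and 86.4. With the reference transcript's length PARVB came to 25.2 CPM per kilobase in sgCtrl.

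**Figure D3:**
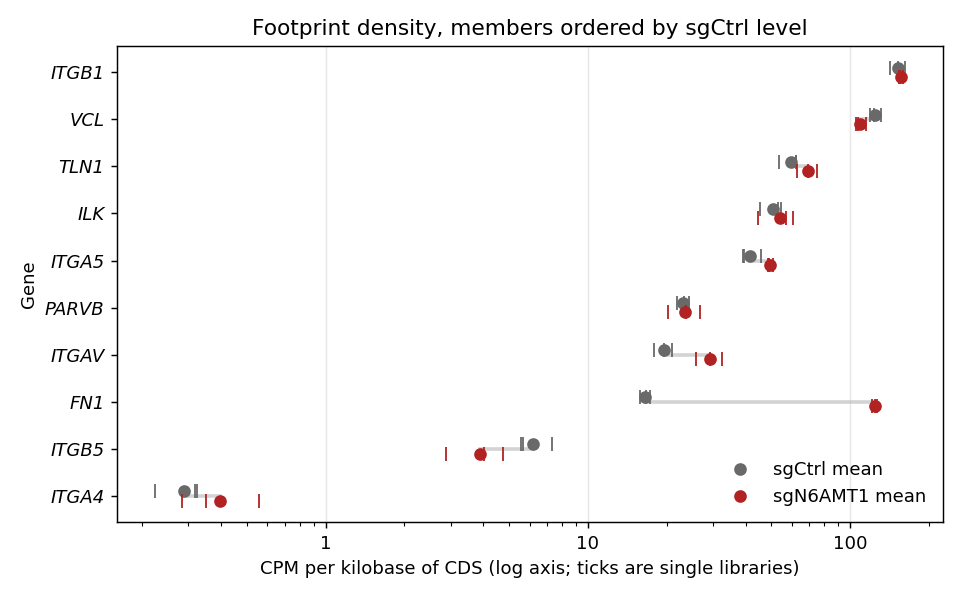
CPM per kilobase of CDS (log axis) for the 10 genes ordered by their sgCtrl level; dots are group means and ticks single libraries. FN1 crosses from 16.6 to 124, past 6 of the other genes, while ITGB1 stays first at 152 and 156.

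Ratios of density within a library need no scaling between libraries. FN1 stood at 0.401 ± 0.026 of ITGA5 in sgCtrl and at 2.50 ± 0.063 in sgN6AMT1, so the ligand passed its receptor chain. ITGAV over ITGB5 went from 3.21 ± 0.555 to 7.81 ± 2.04, and ITGAV over ITGB1 from 0.128 ± 0.0086 to 0.187 ± 0.024. The 12 alpha subunits that can pair with ITGB1 summed to 0.405 ± 0.037 of ITGB1 in sgCtrl and 0.512 ± 0.035 in sgN6AMT1, nearly all of it ITGA5 and ITGAV, and thus below ITGB1 in every library. VCL over TLN1 went from 2.11 ± 0.122 to 1.59 ± 0.102 with no overlap. The ILK complex kept its proportions within the spread: LIMS1 over ILK was 0.698 ± 0.143 and 0.705 ± 0.161, the parvins over ILK 0.457 ± 0.054 and 0.443 ± 0.089, and RSU1 over ILK 1.32 ± 0.104 and 1.18 ± 0.117. PARVB was the only parvin with footprints, since PARVA and PARVG, like LIMS2, had 0 counts on their listed transcripts in all libraries.

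**Figure D4:**
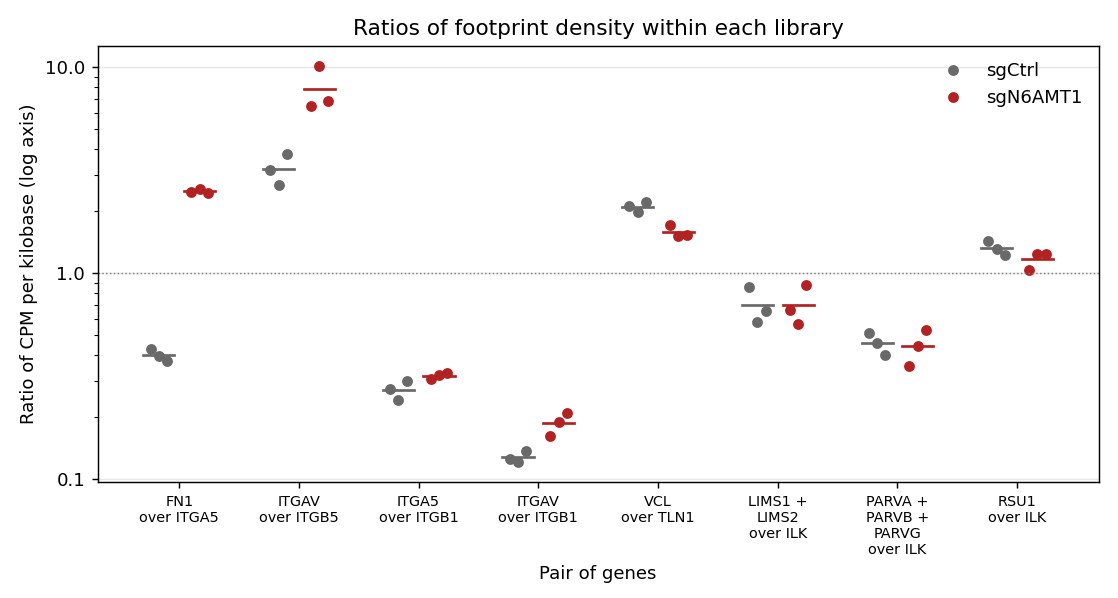
Ratio of CPM per kilobase between paired genes in each library on a log axis (grey sgCtrl, red sgN6AMT1; bars are group means, the dotted line is 1). FN1 over ITGA5 crosses 1, from 0.401 to 2.50, VCL over TLN1 falls from 2.11 to 1.59, and the 3 ratios to ILK overlap between the groups.

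The other integrin subunits were few. Of 21 in the table, 14 had at most 3 counts in any library, 7 of them 0 throughout. ITGAM, ITGAX, ITGB2 and ITGB7 reached more than 3 counts in some library but did not pass the filter, which left 3 to test. ITGA2B, the platelet integrin chain that partners ITGB3, fell from 25, 36 and 22 counts to 5, 11 and 6 (log2 fold change -1.79, SE 0.32). ITGA2B passed the filter on low counts through the sgCtrl libraries, where it is high, so its edgeR call as lower is a description. It is also 1 of the megakaryocyte markers above, whose GP1BB fell as well (141 ± 9.83 to 70.1 ± 13.9 CPM). ITGB3 had 4.94 ± 1.54 and 4.64 ± 0.259 CPM (log2 fold change -0.08, adjusted p = 0.908), and ITGAE, the alpha chain that binds E-cadherin, 8.39 ± 1.42 and 12.2 ± 3.49 CPM (0.51, adjusted p = 0.143). ITGA6 and ITGA9 had at most 1 count in any library. By their counts, the integrin footprints of these cells were almost wholly on ITGB1, ITGA5 and ITGAV, with ITGB5, ITGAE, ITGA2B, ITGB3 and, in sgN6AMT1, ITGAM far below.

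In the list of other adhesion adaptors, 8 of 31 tested genes rose and 4 fell (median log2 fold change 0.10), beside the 12.9% and 13.9% called over all genes. This and the following lists were chosen with earlier results of these data known, so their counts beside these shares are descriptions. Some genes counted in the lists passed the filter on low counts only through the group where they are high. The erythroid, megakaryocyte and monocyte markers given above moved with the group as well, and their part in this and the following lists was not tested. FERMT3, the blood-cell kindlin that activates integrins beside talin, fell from 200 ± 15.3 to 117 ± 4.41 CPM (log2 fold change -0.78, SE 0.078, edgeR adjusted p = 2.23e-14). Its counts were 434, 559 and 386 against 259, 265 and 224, without overlap, and FERMT1 and FERMT2 had at most 2 counts in any library. FERMT3 per kilobase stood at 100.1 ± 7.67 and 58.2 ± 2.20 CPM, above talin in sgCtrl and below it in sgN6AMT1. PTK2, the focal adhesion kinase, fell from 41.3 ± 0.933 to 27.2 ± 2.74 CPM (-0.60, SE 0.142, adjusted p = 0.000502). PDLIM5, a LIM protein of actin bundles, fell by 0.24 (SE 0.077, adjusted p = 0.0141), which did not pass without sgCtrl replicate 1 (-0.20) or sgN6AMT1 replicate 2 (-0.19), or with library totals only (-0.18). The fourth was TNS4, a tensin, named after its values were seen (log2 fold change -1.79), which passed the filter on low counts only through sgCtrl.

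Paxillin and zyxin, LIM proteins of focal adhesions, were higher. PXN went from 34.8 ± 0.906 to 49.6 ± 8.21 CPM (log2 fold change 0.50, SE 0.132, edgeR adjusted p = 0.00184) and ZYX from 141 ± 11.5 to 176 ± 18.4 CPM (0.32, SE 0.079, adjusted p = 0.00111). Among the largest increases were SHARPIN, which holds integrins inactive (1.21, SE 0.212, adjusted p = 2.90e-06), ARHGEF6, the exchange factor that binds parvins (0.86, SE 0.190, adjusted p = 0.000221), and LASP1 (0.53, SE 0.081, adjusted p = 1.02e-07). LIMS1 and RSU1 of the ILK complex did not pass, at 0.10 (adjusted p = 0.638) and -0.08 (adjusted p = 0.696). TLN2, the second talin, had at most 3 counts in any library.

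Among other matrix proteins and counter-receptors, 6 of 19 tested genes rose and 2 fell (median 0.21), beside 12.9% and 13.9% of all genes. The 2 that fell were the basement membrane proteoglycans AGRN, from 112 ± 13.6 to 63.4 ± 18.8 CPM (log2 fold change -0.84, SE 0.122, edgeR adjusted p = 4.30e-07), and HSPG2, from 213 ± 16.9 to 164 ± 22.9 CPM (-0.38, SE 0.076, adjusted p = 3.26e-05). With CDS length and GC trends removed HSPG2 was at -0.24, still past the threshold. ICAM1 and ICAM2, ligands of the leukocyte beta2 integrins, rose by 0.98 (SE 0.108, adjusted p = 1.48e-12) and 0.82 (SE 0.116, adjusted p = 1.05e-08). ICAM1 went from 53.8 ± 8.89 to 106 ± 0.837 CPM. The laminin chain LAMB1 rose from 26.6 ± 4.37 to 52.4 ± 6.79 CPM (0.97, SE 0.137, adjusted p = 1.21e-08).

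Genes of fibronectin assembly, crosslinking and turnover moved in both directions, with 6 of 15 tested genes higher and 3 lower (median 0.27), beside 12.9% and 13.9% of all genes. Urokinase, PLAU, which starts the plasmin cascade that cleaves fibronectin, had 18, 24 and 12 footprints in the controls against 66, 53 and 52 (7.74 ± 1.63 to 26.7 ± 3.30 CPM; log2 fold change 1.76, SE 0.219, edgeR adjusted p = 1.43e-10). SDC4, the syndecan that acts with alpha5beta1 on fibronectin, rose from 12.0 ± 3.60 to 21.4 ± 2.42 CPM (0.88, SE 0.213, adjusted p = 0.000714). The metalloproteinase inhibitor TIMP1 rose from 706 ± 28.9 to 989 ± 46.6 CPM (0.49, SE 0.050, adjusted p = 5.07e-14).

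LTBP3, a latent TGF-beta binding protein, was 0.73 higher (SE 0.228, adjusted p = 0.00987). This call was lost without sgCtrl replicate 3 (0.62) or sgN6AMT1 replicate 2 (0.62). LTBP1, another protein of that family, which is laid down on fibronectin fibrils, fell from 71.1 ± 8.15 to 35.6 ± 2.03 CPM (-0.98, SE 0.123, adjusted p = 2.08e-10). Transglutaminase 2, TGM2, which crosslinks fibronectin and serves as a co-receptor, fell from 153 ± 9.69 to 96.0 ± 10.0 CPM (-0.67, SE 0.087, adjusted p = 6.70e-10). CD44, the hyaluronan receptor, fell by 0.55 (SE 0.165, adjusted p = 0.00692), which did not pass without sgCtrl replicate 2 (-0.49).

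Of the actin linkage and SRF target genes, 14 of 46 tested rose and 3 fell (median 0.09), beside 12.9% and 13.9% of all genes. The 3 that fell were MYH10, a nonmuscle myosin heavy chain (237 ± 6.82 to 153 ± 8.23 CPM; log2 fold change -0.64, SE 0.070, edgeR adjusted p = 1.72e-12), the membrane linker MSN (967 ± 5.92 to 745 ± 27.0 CPM; -0.38, SE 0.049, adjusted p = 6.46e-10), and FLNA, a filamin that binds integrin tails, named after its values were seen (-0.15). The largest increases were the filament-severing and capping proteins GSN (22.6 ± 3.69 to 57.7 ± 3.44 CPM; 1.32, SE 0.138, adjusted p = 1.61e-13) and CAPG (24.8 ± 0.707 to 54.9 ± 7.45 CPM; 1.15, SE 0.137, adjusted p = 2.42e-11). RAC2, the blood-cell Rac GTPase, rose by 0.54 (SE 0.096, adjusted p = 2.79e-06). The tropomyosin TPM4 was higher by 0.44 (SE 0.129, adjusted p = 0.00526), a call lost without sgN6AMT1 replicate 2 (0.32).

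**Figure D5:**
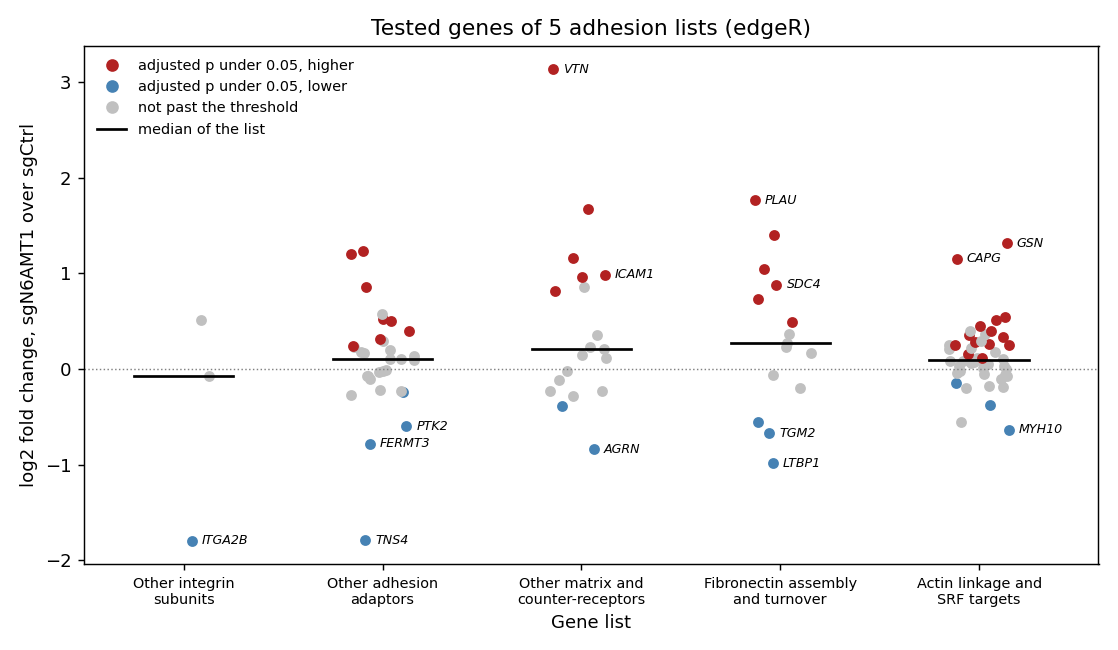
Log2 fold change of every tested gene of the 5 lists around the 10 genes (red higher, blue lower at an edgeR adjusted p of 0.05, grey not past it; black bars are list medians, from -0.08 to 0.27). Calls go in both directions in 4 of the lists, with VTN, PLAU and GSN at the top and ITGA2B and TNS4 at the bottom.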

How the data were processed

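The deposited values were raw footprint counts per transcript, made by the authors and neither normalized nor pooled. Per their methods, adapters were trimmed (cutadapt), reads of footprint length were mapped to GRCh38 (HISAT2), rRNA and tRNA reads were removed, and the rest were assigned to canonical transcripts (bowtie2) with P-sites placed by riboWaltz. Counts were also taken by overlap with gene models for DESeq2, and which of these the table holds is not stated. The labels describe no molecular identifiers, and counting intervals are therefore too narrow. The RNA sequencing was not used here.

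Genes were kept by filterByExpr (minimum 10 counts), which left 9202, and the 10128 removed held 0.465% of counts. They were compared with the quasi-likelihood F test of edgeR 4.0.16 in R 4.3.3 (robust, TMM factors, 2-sided, Benjamini-Hochberg adjustment over all genes tested, threshold 0.05). The test was also run on counts simulated with the same dispersion for every gene, which does not show its error rate on these data. CPM are per TMM-adjusted library. Alternatives were other factors and filters, DESeq2 1.42.0, limma 3.58.1 (voom), a replicate block, loess removal of CDS length and GC trends (span 0.5) and leaving out each library. P-values measure only the spread between these 6 libraries. Identifiers matched GENCODE 44 for 17687 of 19330 transcripts, of which 17537 had a CDS.

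The 10 genes, the 5 lists around them and the marker lists were chosen with earlier results of these data known. Genes named were the 10, N6AMT1, set partners of the 10 (ITGA2B, ITGB3, ITGA6, ITGA9, PARVA, PARVG, LIMS1, RSU1, FERMT3, TLN2, PXN, ZYX and PTK2), in each list up to 4 largest increases and 4 largest decreases among genes called, averaging 10 CPM or more and not overlapping between groups, and the 3 genes most like FN1. Some genes that this rule or the lists hold are not reported here. A fold against sparse genes is a ratio of summed counts with an exact 95% interval that covers counting error only.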

Additional observations from a re-analysis of the deposited data

How the results depend on the processing

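Over 15 alternatives the number of the 10 genes called was 3 to 6, with 3 (2 higher, 1 lower) under DESeq2 and 4 to 6 without each library in turn. FN1 and ITGAV were called under each alternative, with log2 fold changes of 2.87 to 2.97 and 0.50 to 0.65. FN1 was 2.97 with library totals only and 2.96 with CDS length and GC trends removed. None of the called genes followed singly under these alternatives (the 10 and those the naming rule gave, without the 3 most like FN1) changed sign. TNS4, FLNA, VTN, PLAUR and the neighbours of FN1 were not followed singly, nor were the marker genes other than ITGA2B and ITGB3. Among other integrin subunits the 1 call became 2 with no filter on low counts, 0 with a mean of at least 50 counts (ITGA2B was then not tested) and 2 under DESeq2, and 1 to 2 without each library. DESeq2 called 7 of 37 tested adaptors (12 of 31 in edgeR) and 10 of 49 tested actin genes (17 of 46 in edgeR). Over all genes it called 5.43% higher and 6.86% lower, against 12.9% and 13.9% in edgeR. PXN, PDLIM5, CD44, LTBP3 and TPM4 were lost under DESeq2. With a mean of at least 50 counts, 5 of 9 tested fibronectin assembly genes were called (9 of 15 in the main setting). Over all 5874 genes that this filter left, 967 were called higher and 1006 lower. Without each library the counts were 10 to 12 adaptors, 8 to 11 matrix genes, 8 to 11 assembly genes and 12 to 19 actin genes. Over all genes, of which 9277 to 9387 were tested, these settings called 906 to 1119 higher and 953 to 1203 lower. The cause of these differences was not tested, beyond the fewer genes that the filters leave.

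Libraries with the same number did not deviate together over all tested genes (r = -0.06, 0.02 and 0.02). A shared effect on few genes would not show in these values, so pairing by number is not excluded. With the replicate number as a block, 6 of the 10 genes were called, and 1167 genes were higher and 1223 lower in all. ITGA4 (at most 4 counts) and most integrin subunits had too few counts to test at this depth.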

Other observations

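Several sparse genes of the same biology, chosen after their values were seen, had far more footprints in sgN6AMT1. Other sparse genes of the lists went the other way. Among them were ITGB4 (1, 2 and 3 counts in sgCtrl against 0, 0 and 0), EMILIN1 (3, 2 and 3 against 0, 0 and 0) and TIMP3 (4, 4 and 4 against 1, 3 and 0). Vitronectin, VTN, a ligand of alphaV integrins, had 0, 8 and 2 footprints in the controls against 29, 32 and 23, 9.02 times as many on the summed, scaled counts (95% interval 4.67 to 19.5, counting error only). The edgeR log2 fold change was 3.13 (SE 0.394), and the mean over the 6 libraries was under 10 CPM. VTN passed the filter on low counts only through sgN6AMT1, where it is high, so this value is a description. ITGAM, the alpha chain of the leukocyte receptor Mac-1 and 1 of the monocyte markers, had 2, 1 and 0 counts against 17, 9 and 15, a ratio of 14.7 (4.68 to 74.1). Its partner ITGB2 had 0, 1 and 0 counts against 3, 4 and 3 (10.7, interval 1.53 to 466). LOXL2, a lysyl oxidase of the matrix, had 1, 2 and 0 counts against 11, 11 and 7 (10.4, interval 3.22 to 53.2). PLAUR, the urokinase receptor, rose from 6.17 ± 0.339 to 12.8 ± 2.03 CPM (log2 fold change 1.05, SE 0.271, adjusted p = 0.00165).

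The genes whose log2 CPM followed FN1 most closely were PSAP, the precursor of the lysosomal saposins (Pearson r = 0.99962), the MHC class I light chain B2M (r = 0.99839) and the pyruvate kinase PKM (r = 0.99819), among 7803 genes over 6 libraries. These are descriptions: the 6 points share the group difference and the library scaling. The 5 tested genes within 2 Mb of FN1 on chromosome 2 did not rise with it. Their log2 fold changes ran from -0.37 to -0.07, with ATIC, XRCC5 and RPL37A lower and BARD1 and SMARCAL1 not past the threshold.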
